A study of Homo sapiens with 12 samples.

Results

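The DNA replication machinery was followed here through 37 genes: the MCM helicase, the factors that license and fire origins, the replicative polymerases, the sliding clamp and its loader, the enzymes of the lagging strand, the suppliers of deoxynucleotides, and chromatin assembly factor CAF-1. The members were listed by gene name, and each was read from its brightest probe set (the one with the highest mean over the arrays). All 37 were measured, out of 11963 genes tested, and none needed an older symbol to be found. The cells were MDA-MB-231, an established human breast cancer line of the triple-negative kind. They were kept for 24 h in DMSO (the vehicle), in 5 uM SAHA, the histone deacetylase inhibitor also called vorinostat, in 2.5 mM pargyline (a monoamine oxidase inhibitor that also acts on the related histone demethylase LSD1), or in both drugs at these doses. Each of the 4 groups had 3 biological replicates, 1 Affymetrix expression array each, so every group is a single cell line at 1 dose and 1 time. The labels do not say how the replicates were separated, so the p-values measure the spread between these arrays.

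Replication starts where the origin recognition complex, CDC6 and CDT1 load the MCM helicase onto DNA before S phase. Kinases, MCM10, CDC45 and the GINS complex then turn the loaded helicase into an active one, after which polymerase alpha-primase, polymerase epsilon and polymerase delta copy the strands, held in place by PCNA. Many of these genes are transcribed at the G1/S transition under E2F factors, so their transcripts are widely used as a sign of cells entering S phase.

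Promoters are shown first because the members share letters there. RefSeq (assembly GRCh38.p14) listed a promoter for 34 of the 37 members; MCM4, MCM5 and RPA3 were not listed. Each window ran from 250 bases before to 50 bases after the first start listed for the gene, 300 bases in all. The 4 words TTTGGCGC, TTTCCCGC, TTTCGCGC and TTTGCCGC, the only forms of the E2F motif looked for, were searched on both strands. At least 1 of them lay in 17 of the 34 member windows (50%), in 4.88% of the windows of 9563 tested genes and in 3.33% of all 27305 windows. The other words searched, also on both strands, were CCAAT, in 19 member windows (55.9%, against 37.3% of tested genes), the cell cycle homology region TTTGAA, in 1 (2.94%, against 11%), and the GC box GGGCGG, in 24 (70.6%, against 63.1%). These shares describe the letters and were not tested; a match is not a bound site, and no match says only that those letters are not in the window.

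The windows printed next run from 250 bases before to 10 bases after the start, 5′ to 3′ along the gene. The E2F words searched are in capitals, and any other form of the motif is not marked. They were picked after the changes and the matches had been seen: MCM6, MCM7, CDT1, GINS3 and TYMS as members that fell with SAHA and hold a word, RRM2 and TK1 as members that rose and hold none. In MCM6 the capitals are 2 overlapping pairs, 1 word on each strand.
MCM6, chr2:135876434-135876693, minus strand: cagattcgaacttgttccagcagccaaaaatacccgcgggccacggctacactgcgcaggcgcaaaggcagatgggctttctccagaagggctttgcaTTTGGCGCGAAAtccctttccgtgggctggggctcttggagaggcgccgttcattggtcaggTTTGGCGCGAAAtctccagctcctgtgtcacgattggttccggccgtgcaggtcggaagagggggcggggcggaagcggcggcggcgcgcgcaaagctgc
MCM7, chr7:100101388-100101647, minus strand: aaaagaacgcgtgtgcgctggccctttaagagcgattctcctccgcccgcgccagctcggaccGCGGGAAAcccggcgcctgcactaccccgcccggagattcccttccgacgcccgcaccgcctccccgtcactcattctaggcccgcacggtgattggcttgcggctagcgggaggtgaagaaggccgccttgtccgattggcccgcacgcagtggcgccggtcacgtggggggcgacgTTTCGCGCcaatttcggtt
CDT1, chr16:88803539-88803798, plus strand: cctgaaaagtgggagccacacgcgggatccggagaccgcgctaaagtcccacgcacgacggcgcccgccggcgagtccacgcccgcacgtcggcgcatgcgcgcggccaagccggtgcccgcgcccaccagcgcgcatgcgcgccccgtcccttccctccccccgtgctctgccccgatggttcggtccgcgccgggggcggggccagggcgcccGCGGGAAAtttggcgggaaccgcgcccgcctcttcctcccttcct
GINS3, chr16:58392221-58392480, plus strand: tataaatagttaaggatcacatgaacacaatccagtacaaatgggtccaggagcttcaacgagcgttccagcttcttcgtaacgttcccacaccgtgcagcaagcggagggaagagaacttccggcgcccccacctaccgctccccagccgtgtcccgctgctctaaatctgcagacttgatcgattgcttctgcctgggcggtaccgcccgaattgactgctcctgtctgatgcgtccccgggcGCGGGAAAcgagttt
TYMS, chr18:657403-657662, plus strand: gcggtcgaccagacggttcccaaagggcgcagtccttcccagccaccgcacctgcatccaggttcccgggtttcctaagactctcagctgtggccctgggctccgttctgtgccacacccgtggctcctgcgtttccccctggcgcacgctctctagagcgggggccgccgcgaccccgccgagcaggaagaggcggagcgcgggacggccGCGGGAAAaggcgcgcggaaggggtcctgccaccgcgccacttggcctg
RRM2, chr2:10122489-10122748, plus strand: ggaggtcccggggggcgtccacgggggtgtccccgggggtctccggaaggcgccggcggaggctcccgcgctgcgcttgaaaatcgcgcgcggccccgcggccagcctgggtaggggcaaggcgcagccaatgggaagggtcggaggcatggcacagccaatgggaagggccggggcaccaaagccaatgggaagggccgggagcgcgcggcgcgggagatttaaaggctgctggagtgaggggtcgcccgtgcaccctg
TK1, chr17:78187195-78187454, minus strand: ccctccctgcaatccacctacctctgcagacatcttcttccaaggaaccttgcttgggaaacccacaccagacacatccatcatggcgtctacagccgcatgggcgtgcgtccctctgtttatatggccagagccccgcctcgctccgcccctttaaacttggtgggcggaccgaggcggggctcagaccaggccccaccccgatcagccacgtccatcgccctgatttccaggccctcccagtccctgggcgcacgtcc

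Among members with a listed window, an E2F word lay in 13 of the 20 that fell with SAHA, in 0 of the 4 that rose and in 4 of the 10 that did neither. RFC5, whose probe sets disagree in direction, is counted among those that rose, and RPA3, which rose, has no window. These few genes were not tested for a difference. With both drugs the word lay in 16 of the 29 that fell, 0 of the 2 that rose and 1 of the 3 others. In the MCM7 window the words began at -187 and -9 from the start, and in GINS3 the single word began at -5. The words of MCM2, CDC6 and GINS1 began after the start.

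The values are log2 intensities, so a difference of 1 is a 2-fold change. Intensities of different probe sets are not on 1 scale, so changes are read within each gene. The sums over lists, the median gene and the common cuts used below set different probe sets side by side and are rough guides only. Replicate arrays correlated at 0.9976 to 0.9992 over genes, and array medians lay between 5.148 and 5.376. The median standard error (SE) of a difference between groups was 0.077 over all genes. For most members it was larger, and it ran from 0.05 (RPA3) to 0.29 (ORC1). Of the members, 35 had a mean above that of the median gene (7.06), and their values ran from 3.62 to 15.11; among all values 33.1% were below 2.5. Markers of the line were present, with VIM at 14.90 in DMSO and the 8 measured of 9 mesenchymal markers between 9.37 and 14.90. The mesenchymal list summed to 107.1 in DMSO and 107.2 with pargyline, and to 100.7 with SAHA and 101.2 with both drugs. Among 10 luminal markers ESR1, PGR, FOXA1 and TFF1 were below 3.5 in DMSO, while ERBB2, XBP1, GATA3, KRT19, KRT8 and KRT18 lay between 8.28 and 13.35; the luminal list summed to 73.3 in DMSO and 75.3 with pargyline, and to 67.8 with SAHA and 67.0 with both drugs. All 5 endothelial markers were below 3.5 in DMSO, as were 8 of the 9 measured leukocyte markers, PTPRC among them at 2.55. The leukocyte list summed to 23.0 in DMSO and 23.9 with pargyline, and to 28.7 with SAHA and 28.2 with both drugs; CORO1A alone went from 2.06 to 7.91 with SAHA, and PTPRC was 2.54 there. Whether these markers have a part in the results was not tested.

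**Figure D1:**
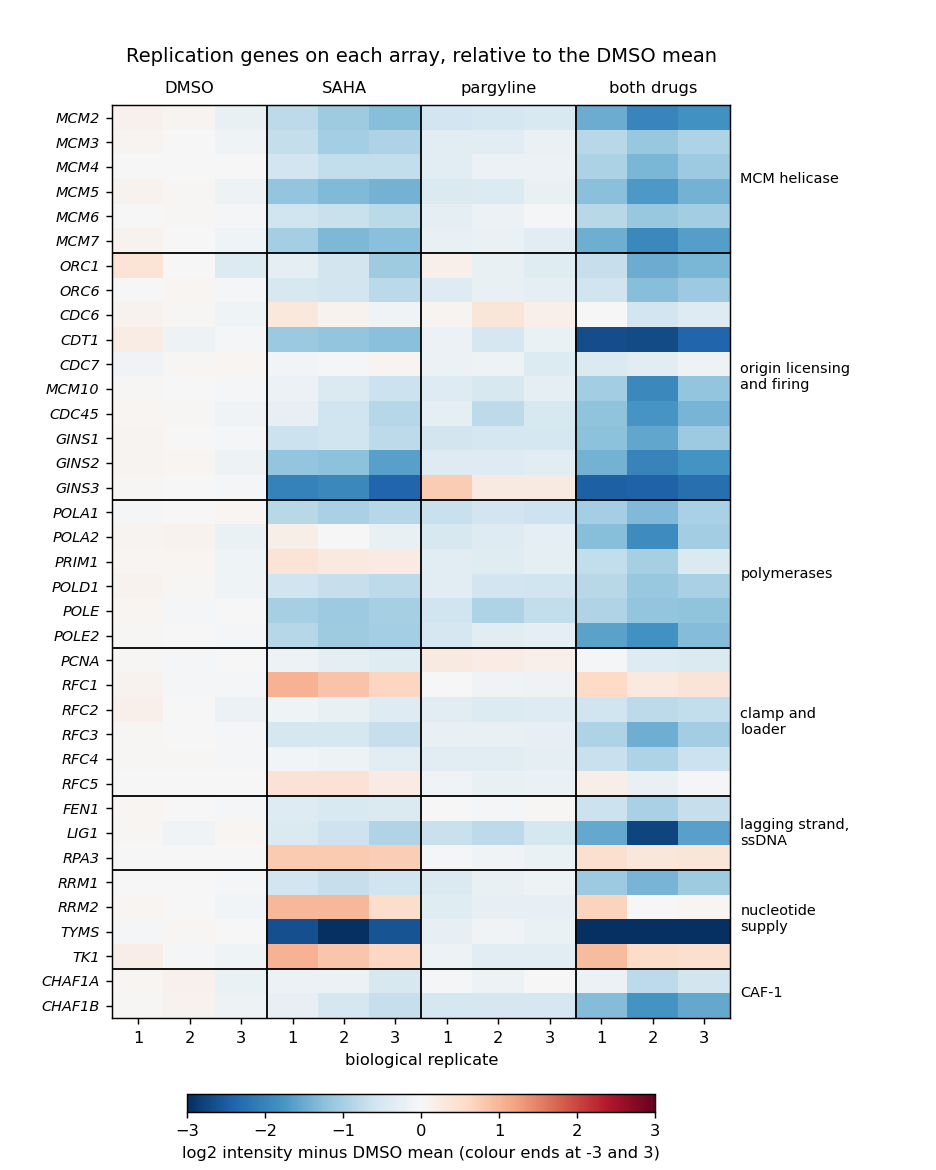
Log2 intensity of each of the 37 genes (rows, grouped by role) on each of the 12 arrays (columns, by treatment and replicate), minus the gene's DMSO mean; blue is lower and red higher, and the colour ends at -3 and 3. With SAHA and with both drugs most rows are blue and those of RFC1, RPA3 and TK1 are red, RRM2 is red with SAHA, and the pargyline columns are pale.

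SAHA lowered most of the replication genes. A gene is said to have fallen or risen where limma's moderated test, adjusted by Benjamini-Hochberg over all genes, gave p under 0.05. Of the 37 members 22 fell (59.5%) where 23.1% of all genes did, with adjusted p from 6.35e-07 to 0.0424, and 5 rose (13.5%) where 23% of all genes did, with adjusted p from 8.04e-07 to 0.00774. The median member changed by -0.61 and the median gene by 0.00. At least 2-fold falls were seen in MCM2, MCM5, MCM7, GINS2, GINS3, CDT1, POLE and TYMS; 8.75% of all genes fell that far. The 5 that rose were RFC1, RFC5, RPA3, RRM2 and TK1. In RNA from whole cultures, fewer cells that express a gene and less RNA per cell cannot be told apart.

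Pargyline on its own lowered 7 of 37 members (18.9%), adjusted p 0.00122 to 0.0349, beside 7.45% of all genes, and raised 0, beside 8.48% of all genes. The 7 were POLA1, POLE, POLD1, GINS1, RFC2, RFC4 and CHAF1B, and none fell by 2-fold. Estimates were below 0 for 34 members, with a median of -0.28, against 60.3% of all genes and a median of -0.02. The count depended on single arrays: it was 4 without DMSO replicate 1 or 2 or without pargyline replicate 2 or 3. There 4% to 6.06% of all genes fell, and RFC2, RFC4 and CHAF1B no longer passed. Where these 3 missed the threshold with a single array left out, their adjusted p lay between 0.0533 and 0.122. The count was 11 with the replicate number as a block, where 9.37% of all genes fell. The block added MCM2, MCM3, CDC45 and TK1 (adjusted p 0.0248 to 0.0463). The count was 27 after centring each array on its median, a step that made 51.6% of all genes fall.

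Most members fell with the 2 drugs together. Against DMSO 31 members fell (83.8%) beside 24% of all genes, with adjusted p from 9.99e-08 to 0.0315, and 3 rose (8.11%) beside 24.3% of all genes. The median member changed by -1.11, the median gene by -0.01, and 21 members fell at least 2-fold, which 9.76% of all genes did. After centring of arrays the members that fell were 25 with SAHA and 32 with both drugs, beside 34% and 62.9% of all genes. The members that rose were RFC1, RPA3 and TK1, and those that passed in neither direction were CDC6, RFC5 and RRM2. The comparisons with DMSO use the same 3 DMSO arrays, so their counts are not independent of each other.

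Adding pargyline to SAHA lowered 23 members relative to SAHA alone (62.2%), adjusted p 0.000532 to 0.0467, beside 8.71% of all genes. It raised 0, beside 7.88% of all genes. Of the 23, 4 (RFC1, RFC5, RPA3 and RRM2) had risen with SAHA, so this was not a further fall. Others, POLA2 and PRIM1 among them, had not passed with SAHA. All 37 estimates were below 0, as were 58.8% of all genes, and the medians were -0.46 and -0.02. Both-drugs replicate 2 was the lowest array of its group for most members, so these estimates are not independent of each other. With single arrays left out, the member median ran from -0.57 (without both-drugs replicate 1) to -0.35 (without both-drugs replicate 2). The count of lowered members was 8 when the SAHA and both-drugs groups alone were fitted, where 5.13% of all genes fell. It was 18 without SAHA replicate 1 or without both-drugs replicate 2, where 6.48% and 5.28% of all genes fell. MCM2, MCM6, MCM7, RFC1, RFC5 and RRM2 missed the threshold in at least 1 fit without a single array, with adjusted p between 0.0527 and 0.167. Against pargyline, both drugs lowered 31 members, beside 23.6% of all genes, and raised 4 (RFC1, RPA3, RRM2 and TK1), beside 23.9%. SAHA set directly against pargyline gave 17 lower members, beside 22.7% of all genes, and 6 higher ones, beside 23.4%. The 6 were RFC1, RFC5, PRIM1, RRM2, TK1 and RPA3.

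**Figure D2:**
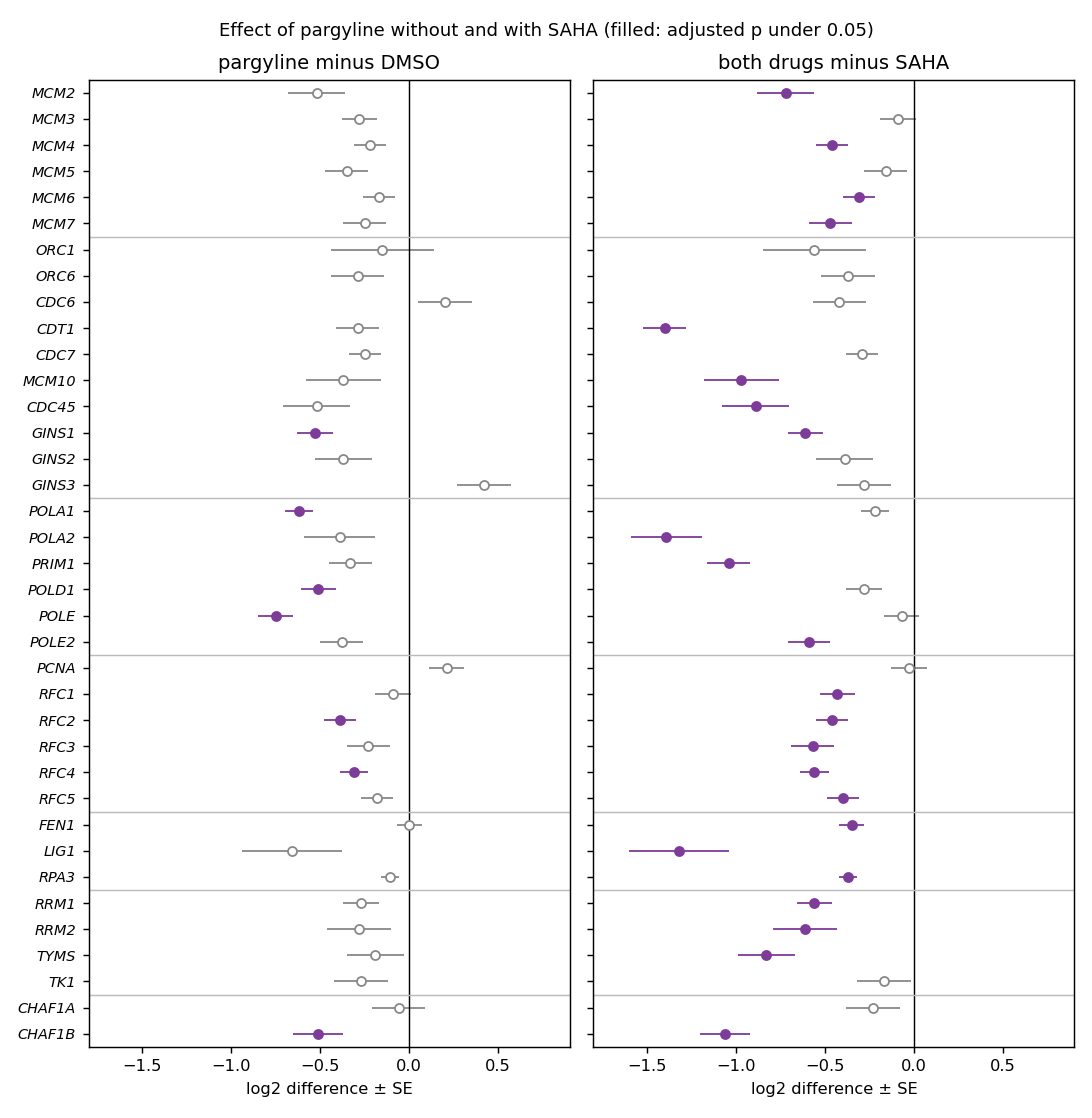
Log2 difference ± SE made by pargyline for each of the 37 genes, on its own (left, pargyline minus DMSO) and on top of SAHA (right, both drugs minus SAHA); filled points passed at adjusted p under 0.05. On the left 7 points are filled and on the right 23, all of them below 0.

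The MCM2 to MCM7 genes encode the subunits of the helicase that unwinds DNA at the fork. All 6 fell with SAHA, by 0.68 (MCM4) to 1.31 (MCM5) on the log2 scale, beside 23.1% of all genes. All 6 fell with both drugs, by 0.97 (MCM3) to 1.76 (MCM2), beside 24% of all genes. None passed with pargyline, where the estimates lay between -0.52 and -0.17 and 7.45% of all genes fell. MCM2 measured 12.11, 12.07 and 11.75 in DMSO, 11.20, 10.91 and 10.71 with SAHA, 11.41, 11.44 and 11.53 with pargyline, and 10.50, 9.99 and 10.17 with both drugs. Its 4 groups did not overlap, and the arrays with both drugs were lowest: the change was -1.03 ± 0.16 (SE, 3 arrays a group) with SAHA (adjusted p = 0.000356), -0.52 ± 0.16 with pargyline (adjusted p = 0.0562) and -1.76 ± 0.16 with both (adjusted p = 8.21e-06).

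MCM7 stood at 12.86, 12.76 and 12.63 in DMSO, 11.72, 11.40 and 11.49 with SAHA, 12.52, 12.56 and 12.42 with pargyline, and 11.29, 10.82 and 11.10 with both. The SAHA arrays lay below every DMSO array, and the arrays with both drugs below every SAHA array (both minus SAHA -0.47 ± 0.12, adjusted p = 0.0285). MCM5 gave 11.13, 11.05 and 10.87 in DMSO, 9.83, 9.69 and 9.60 with SAHA, 10.59, 10.60 and 10.80 with pargyline, and 9.77, 9.29 and 9.59 with both. It fell by 1.31 ± 0.12 with SAHA (2.48-fold, adjusted p = 1.39e-05), and here the arrays with both drugs overlapped those with SAHA (difference -0.16 ± 0.12, adjusted p = 0.459). MCM4 read 11.32, 11.33 and 11.34 in DMSO, 10.76, 10.60 and 10.60 with SAHA, 11.02, 11.15 and 11.16 with pargyline, and 10.38, 9.96 and 10.23 with both. All treated arrays of MCM4 lay below DMSO and the arrays with both drugs below those with SAHA; the further fall from SAHA to both drugs was 0.46 ± 0.09 (adjusted p = 0.00968). In that step MCM6 fell by 0.31 ± 0.09 (adjusted p = 0.0424), a call that was lost with the replicate block (adjusted p = 0.058), and MCM3 changed by -0.09 ± 0.10 (adjusted p = 0.603); a difference between the 2 genes was not tested.

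Genes for origin licensing and firing fell in 9 of 10 cases with both drugs (all genes 24%) and in 6 with SAHA (all genes 23.1%). With pargyline 1 fell (10%), which is near the share of all genes (7.45%). None passed upward, beside 24.3%, 23% and 8.48% of all genes in that order. CDT1, which brings the helicase to the origin and is kept to G1 by geminin and by degradation, measured 6.53, 6.16 and 6.24 in DMSO, 5.20, 5.13 and 5.06 with SAHA, 6.14, 5.81 and 6.10 with pargyline, and 3.64, 3.62 and 3.93 with both. All SAHA arrays lay below DMSO and all arrays with both drugs far below SAHA. It fell by 1.18 ± 0.12 with SAHA (2.27-fold, adjusted p = 2.73e-05) and by 2.58 ± 0.12 with both drugs (5.98-fold, adjusted p = 1.43e-07), against -0.29 ± 0.12 with pargyline (adjusted p = 0.161). Its values with both drugs lie near the low end of the scale.

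GINS3 encodes a subunit of GINS, the complex that joins CDC45 and MCM2-7 in the active helicase. Its probe set gave 8.24, 8.23 and 8.16 in DMSO, 6.18, 6.28 and 5.84 with SAHA, 8.96, 8.47 and 8.47 with pargyline, and 5.75, 5.78 and 5.94 with both drugs. SAHA arrays lay below every array without SAHA, and those with both drugs overlapped them: the fall was 2.11 ± 0.15 with SAHA (4.32-fold, adjusted p = 1.65e-06) and 2.39 ± 0.15 with both (5.23-fold, adjusted p = 6.1e-07). With pargyline all 3 arrays were above DMSO, by 0.42 ± 0.15, which missed the threshold (adjusted p = 0.0836); a second probe set of GINS3 gave -2.21 with SAHA, -2.39 with both and 0.09 with pargyline.

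GINS2, another GINS subunit, measured 11.29, 11.26 and 11.04 in DMSO, 10.02, 9.97 and 9.56 with SAHA, 10.82, 10.81 and 10.86 with pargyline, and 9.79, 9.19 and 9.41 with both. It fell by 1.35 ± 0.16 with SAHA (adjusted p = 5.86e-05), and the arrays with both drugs overlapped those with SAHA. CDC45, the helicase cofactor, measured 9.70, 9.68 and 9.53 in DMSO, 9.39, 9.05 and 8.77 with SAHA, 9.34, 8.86 and 9.16 with pargyline, and 8.43, 7.86 and 8.24 with both. Here SAHA and pargyline overlapped, with changes of -0.57 ± 0.19 (adjusted p = 0.0332) and -0.52 ± 0.19 (adjusted p = 0.102), and the arrays with both drugs lay below all others (-1.46 ± 0.19, adjusted p = 9.99e-05). The SAHA result of CDC45 was lost without DMSO replicate 1 or 2 or without SAHA replicate 2 or 3 (adjusted p 0.0808 to 0.121).

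GINS1 fell with SAHA by 0.68 ± 0.10, with pargyline by 0.53 ± 0.10 and with both drugs by 1.29 ± 0.10. MCM10, an activator of the loaded helicase, fell by 1.39 ± 0.21 with both drugs (adjusted p = 0.000297), against -0.41 with SAHA and -0.37 with pargyline, neither of which passed. ORC1 and ORC6, subunits of the origin recognition complex, fell with both drugs by 1.18 ± 0.29 and 0.98 ± 0.15, and ORC6 also with SAHA by 0.61 ± 0.15. ORC1 gave -0.63 ± 0.29 with SAHA (adjusted p = 0.119) and -0.56 ± 0.29 from SAHA to both drugs (adjusted p = 0.256); with the replicate block both steps passed (SE 0.12, adjusted p = 0.00308 and 0.0178). CDC7, the kinase that fires licensed origins, fell by 0.31 ± 0.09 with both drugs (adjusted p = 0.0193; 0.0586 to 0.0751 without DMSO replicate 2 or 3 or both-drugs replicate 1 or 2). CDC6, the loading ATPase, passed in none of the comparisons with DMSO: its estimates were 0.11 with SAHA, 0.20 with pargyline and -0.31 ± 0.15 with both (adjusted p = 0.134), and all of these groups overlapped DMSO.

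**Figure D3:**
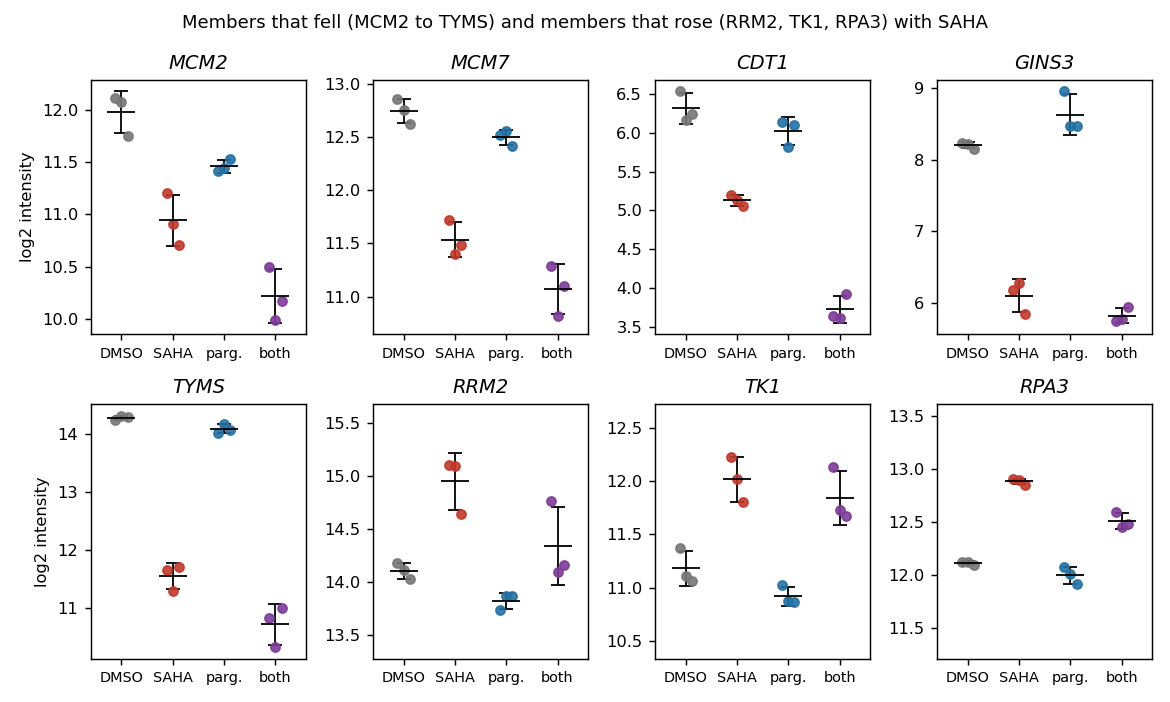
Log2 intensity of 8 genes on each array (points), with the mean and SD of the 3 arrays of each group (lines); each panel has its own axis. MCM2, MCM7, CDT1, GINS3 and TYMS are lower with SAHA and with both drugs than in DMSO, and RRM2, TK1 and RPA3 are higher with SAHA.

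Polymerase genes fell in all 6 cases with both drugs (all genes 24%), in 4 with SAHA (all genes 23.1%) and in 3 with pargyline (all genes 7.45%). POLA1, the catalytic subunit of polymerase alpha, which makes the primers together with primase, gave 10.63, 10.64 and 10.71 in DMSO, 9.83, 9.69 and 9.80 with SAHA, 9.997, 10.09 and 10.04 with pargyline, and 9.64, 9.34 and 9.68 with both. Every treated array lay below every DMSO array. The falls were 0.89 ± 0.08 (adjusted p = 1.14e-05), 0.62 ± 0.08 (adjusted p = 0.00125) and 1.11 ± 0.08 (adjusted p = 2.27e-06) in that order, and the step from SAHA to both drugs, -0.22 ± 0.08, did not pass (adjusted p = 0.114).

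POLE, the catalytic subunit of the leading strand polymerase epsilon, measured 8.84, 8.73 and 8.76 in DMSO, 7.79, 7.69 and 7.78 with SAHA, 8.19, 7.84 and 8.05 with pargyline, and 7.87, 7.59 and 7.57 with both. All treated arrays were below DMSO, and the arrays with both drugs overlapped those with SAHA and those with pargyline. It fell by 1.02 ± 0.10 with SAHA (adjusted p = 1.45e-05), by 0.75 ± 0.10 with pargyline (adjusted p = 0.00122) and by 1.10 ± 0.10 with both (adjusted p = 7.65e-06). Its accessory subunit POLE2 read 11.86, 11.83 and 11.77 in DMSO, 10.96, 10.75 and 10.80 with SAHA, 11.31, 11.47 and 11.55 with pargyline, and 10.21, 10.003 and 10.53 with both. For POLE2 the arrays with both drugs lay below all SAHA arrays (-0.59 ± 0.12, adjusted p = 0.00978), and the fall from DMSO was 0.98 ± 0.12 with SAHA and 1.57 ± 0.12 with both.

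POLA2, the second subunit of polymerase alpha, measured 7.93, 7.95 and 7.65 in DMSO, 8.02, 7.84 and 7.61 with SAHA, 7.37, 7.45 and 7.55 with pargyline, and 6.56, 5.95 and 6.79 with both drugs. SAHA arrays overlapped DMSO (-0.02 ± 0.20, adjusted p = 0.982), and the arrays with both drugs lay below all others (-1.41 ± 0.20, adjusted p = 0.000169). PRIM1, the catalytic subunit of primase, was lowest with both drugs too; its SAHA arrays lay above DMSO by 0.32 ± 0.12, which did not pass (adjusted p = 0.0568), and the changes were -0.33 ± 0.12 with pargyline (adjusted p = 0.103) and -0.73 ± 0.12 with both (adjusted p = 0.000553). From SAHA to both drugs POLA2 fell by 1.39 ± 0.20 and PRIM1 by 1.04 ± 0.12. POLD1, the catalytic subunit of the lagging strand polymerase delta, fell by 0.69 ± 0.10 with SAHA, 0.51 ± 0.10 with pargyline and 0.97 ± 0.10 with both. From SAHA to both drugs POLD1 gave -0.28 ± 0.10 (adjusted p = 0.0954), which passed with the block (adjusted p = 0.0169).

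The sliding clamp and its loader gave mixed directions. The loader, replication factor C, has a large subunit, RFC1, and small subunits RFC2 to RFC5, and it opens PCNA to place it on DNA. RFC1 measured 9.83, 9.67 and 9.70 in DMSO, 10.77, 10.60 and 10.38 with SAHA, 9.73, 9.62 and 9.57 with pargyline, and 10.32, 10.03 and 10.12 with both. Arrays with SAHA lay above every array without it: RFC1 rose by 0.85 ± 0.10 with SAHA (adjusted p = 8.06e-05) and by 0.42 ± 0.10 with both drugs (adjusted p = 0.00712). A second RFC1 probe set gave 0.79 with SAHA, and another, with a mean of 2.03, gave 0.01.

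RFC3 went the other way, from 12.35, 12.30 and 12.26 in DMSO to 11.78, 11.77 and 11.62 with SAHA, 12.08, 12.07 and 12.06 with pargyline, and 11.37, 10.83 and 11.27 with both. None of these groups overlapped, and the falls were 0.58 ± 0.12 with SAHA (adjusted p = 0.00219) and 1.15 ± 0.12 with both (adjusted p = 1.91e-05). RFC2 read 11.16, 11.02 and 10.82 in DMSO, 10.86, 10.77 and 10.61 with SAHA, 10.65, 10.58 and 10.61 with pargyline, and 10.40, 10.21 and 10.25 with both. Its SAHA arrays overlapped DMSO, and that fall was small (0.25 ± 0.09, adjusted p = 0.0424) and was lost under quantile normalization, with a trended and robust prior, when only those 2 groups were fitted, and without DMSO replicate 1 or 2 or SAHA replicate 2 or 3 (adjusted p 0.082 to 0.158). RFC4 read 12.33, 12.33 and 12.23 in DMSO, 12.21, 12.14 and 11.99 with SAHA, 11.97, 11.98 and 12.0003 with pargyline, and 11.64, 11.38 and 11.65 with both. The RFC4 arrays with both drugs lay below all others, with a fall of 0.74 ± 0.08 from DMSO (adjusted p = 2.07e-05) and 0.56 ± 0.08 from SAHA (adjusted p = 0.00176).

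RFC5 depended on the probe set. The brightest gave 11.98, 11.97 and 11.97 in DMSO, 12.40, 12.41 and 12.23 with SAHA, 11.86, 11.75 and 11.77 with pargyline, and 12.16, 11.74 and 11.93 with both, a rise of 0.37 ± 0.09 with SAHA (adjusted p = 0.00774). Another RFC5 probe set fell with SAHA by 1.36 ± 0.16 (adjusted p = 7.64e-05) and with both drugs by 1.74 ± 0.16, and another gave 0.16 ± 0.13 with SAHA (adjusted p = 0.457). The mean of the RFC5 probe sets changed by -0.27 with SAHA, so these data give no single direction for the gene. PCNA, the clamp, fell by 0.29 ± 0.10 with both drugs (adjusted p = 0.0315), a call that was lost under quantile normalization, when only those 2 groups were fitted, and without any 1 of DMSO replicates 1, 2 and 3 or both-drugs replicates 2 and 3 (adjusted p 0.0565 to 0.116). Its estimates were -0.26 ± 0.10 with SAHA and 0.21 ± 0.10 with pargyline.

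**Figure D4:**
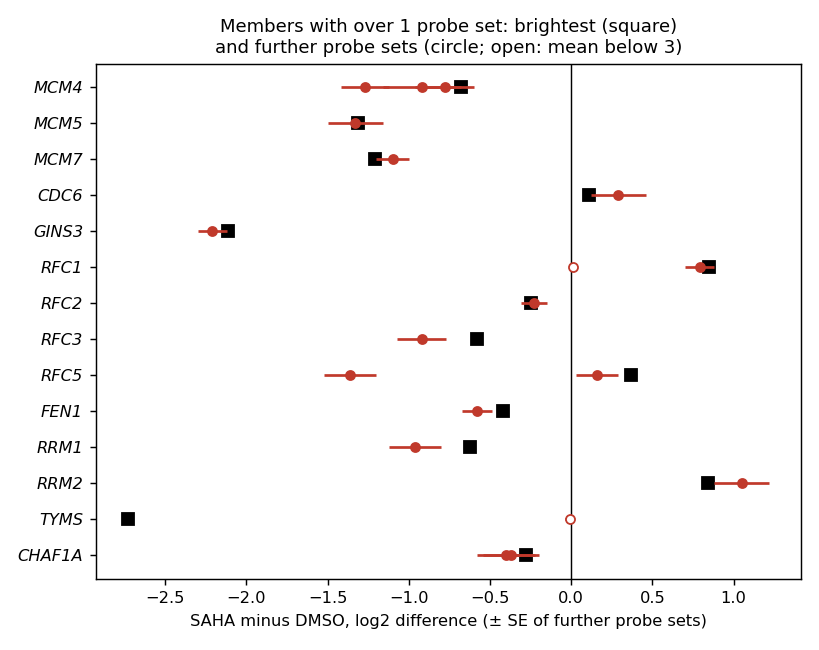
Log2 difference between SAHA and DMSO for the 14 members with more than 1 probe set; squares are the brightest probe set, circles the further ones with their SE, and open circles those with a mean below 3. Squares and circles lie on the same side of 0 except for 1 probe set of RFC5; the open circles of RFC1 and TYMS lie at 0.01 and -0.01.

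On the lagging strand FEN1 trims the primer flaps, LIG1 joins the fragments, and RPA3 is the smallest subunit of RPA, which covers single-stranded DNA. LIG1 measured 8.98, 8.85 and 9.01 in DMSO, 8.51, 8.33 and 8.05 with SAHA, 8.29, 8.15 and 8.42 with pargyline, and 7.40, 6.20 and 7.32 with both. All treated arrays were below DMSO, but the spread was wide (SE 0.28): -0.65 with SAHA (adjusted p = 0.0859) and -0.66 with pargyline (adjusted p = 0.157) did not pass, and -1.98 with both drugs did (3.93-fold, adjusted p = 0.000169). FEN1 gave 13.58, 13.49 and 13.46 in DMSO, 13.13, 13.06 and 13.08 with SAHA, 13.50, 13.46 and 13.55 with pargyline, and 12.86, 12.54 and 12.81 with both. Pargyline arrays overlapped DMSO, and FEN1 fell by 0.42 ± 0.07 with SAHA (adjusted p = 0.000872) and by 0.77 ± 0.07 with both (adjusted p = 1.21e-05).

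RPA3 rose. It measured 12.12, 12.12 and 12.09 in DMSO, 12.90, 12.89 and 12.85 with SAHA, 12.07, 12.01 and 11.91 with pargyline, and 12.59, 12.45 and 12.48 with both. The arrays with both drugs lay between DMSO and SAHA without overlap: the rise was 0.77 ± 0.05 with SAHA (adjusted p = 8.04e-07) and 0.40 ± 0.05 with both (adjusted p = 5.6e-05), and from SAHA to both drugs RPA3 fell by 0.37 ± 0.05 (adjusted p = 0.0014). The other RPA subunits, which were not members, did not move with it: RPA1 gave 0.08 with SAHA (adjusted p = 0.646), and RPA2 fell by 0.29 ± 0.10 with SAHA (adjusted p = 0.0364).

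Among the genes for deoxynucleotide supply TYMS had the largest change of all members. TYMS encodes thymidylate synthase, which makes dTMP from dUMP and is the target of 5-fluorouracil. It measured 14.24, 14.31 and 14.30 in DMSO, 11.65, 11.30 and 11.70 with SAHA, 14.03, 14.18 and 14.08 with pargyline, and 10.83, 10.32 and 11.00 with both. Arrays with SAHA lay far below those without, and the arrays with both drugs below all others. The fall was 2.73 ± 0.16 with SAHA (6.65-fold, adjusted p = 6.35e-07) and 3.57 ± 0.16 with both (11.9-fold, adjusted p = 9.99e-08), while pargyline gave -0.19 ± 0.16 (adjusted p = 0.536). From SAHA to both drugs TYMS fell by 0.83 ± 0.16 (adjusted p = 0.00774). Its second probe set, with a mean of 2.17, sat at the bottom of the scale and showed no change (-0.01 with SAHA).

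Ribonucleotide reductase makes deoxynucleotides from a large subunit, RRM1, and a small one, RRM2, and these moved in opposite directions with SAHA. RRM1 gave 13.75, 13.75 and 13.70 in DMSO, 13.16, 13.05 and 13.13 with SAHA, 13.30, 13.52 and 13.58 with pargyline, and 12.65, 12.33 and 12.67 with both. Each treated group of RRM1 lay below DMSO, with falls of 0.62 ± 0.10 with SAHA (adjusted p = 0.000347) and 1.18 ± 0.10 with both (adjusted p = 3.75e-06). RRM2 gave 14.18, 14.12 and 14.03 in DMSO, 15.11, 15.10 and 14.64 with SAHA, 13.74, 13.87 and 13.87 with pargyline, and 14.77, 14.10 and 14.16 with both. SAHA arrays of RRM2 were above all DMSO arrays (0.84 ± 0.18, adjusted p = 0.00297), and arrays with both drugs overlapped DMSO (0.23 ± 0.18, adjusted p = 0.329). A second RRM2 probe set rose by 1.05 ± 0.17 with SAHA and by 0.49 ± 0.17 with both (adjusted p = 0.042).

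TK1, cytosolic thymidine kinase, makes dTMP by salvage of thymidine. It measured 11.37, 11.11 and 11.06 in DMSO, 12.23, 12.02 and 11.81 with SAHA, 11.02, 10.87 and 10.86 with pargyline, and 12.14, 11.73 and 11.67 with both. Every array with SAHA lay above every array without it, and the groups with SAHA alone and with both drugs overlapped. TK1 rose by 0.84 ± 0.15 with SAHA (adjusted p = 0.000872) and by 0.66 ± 0.15 with both (adjusted p = 0.00352).

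CAF-1 places histones on newly copied DNA and is made of CHAF1A, CHAF1B and a shared histone chaperone. CHAF1B measured 8.28, 8.35 and 8.07 in DMSO, 7.99, 7.70 and 7.55 with SAHA, 7.70, 7.74 and 7.73 with pargyline, and 6.94, 6.45 and 6.69 with both. Its single-drug groups overlapped each other below DMSO, at -0.49 ± 0.14 with SAHA (adjusted p = 0.0161) and -0.51 ± 0.14 with pargyline (adjusted p = 0.0349), and both drugs lay lower than either (-1.54 ± 0.14, adjusted p = 8.32e-06). The SAHA call of CHAF1B was lost without DMSO replicate 1 or 2 or SAHA replicate 2 or 3 (adjusted p 0.0508 to 0.0613). CHAF1A gave 10.44, 10.52 and 10.19 in DMSO, 10.21, 10.20 and 9.90 with SAHA, 10.35, 10.24 and 10.37 with pargyline, and 10.20, 9.59 and 9.83 with both. Each CHAF1A group overlapped DMSO; the fall with both drugs was 0.51 ± 0.15 (adjusted p = 0.0179), and it was lost when only these 2 groups were fitted and without DMSO replicate 1 or 2 or both-drugs replicate 2 or 3 (adjusted p 0.0518 to 0.0675). The brightest probe sets of CHAF1A, ORC6 and RFC1 are of a kind that may also bind other transcripts.

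Whether pargyline acted differently in the presence of SAHA was tested by the interaction, the change with both drugs less the changes with each drug added up. Of the members 1 was below additive (2.44% of all genes) and 1 above (1.28% of all genes), so the share called was close to the background in both directions. CDT1 had an interaction of -1.11 ± 0.18 (adjusted p = 0.0125): pargyline changed it by -0.29 on its own and by -1.40 on top of SAHA. POLE had 0.67 ± 0.14 (adjusted p = 0.0323): pargyline changed it by -0.75 on its own and by -0.07 on top of SAHA. The CDT1 result passed under all 18 settings that kept the gene, with adjusted p from 0.00357 to 0.036, and the POLE result missed the threshold in 9 of 19, with adjusted p from 0.0108 to 0.079. POLE missed it without DMSO replicate 1, 2 or 3, SAHA replicate 1, 2 or 3, pargyline replicate 3 or both-drugs replicate 2, and with a trended robust prior; over all settings its estimates lay between 0.58 and 0.75. For POLA2 (-1.003 ± 0.28, adjusted p = 0.0896) and PRIM1 (-0.71 ± 0.17, adjusted p = 0.0555) the difference did not pass. The other members, too, were not shown to depart from additivity. The median interaction of members was -0.25 against -0.00 over all genes. Of the 37 estimates 31 were below 0, as were 52.1% of all genes, and this lean was not tested.

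Of 45 measured replication genes outside the 37 (53 listed), 25 fell (55.6%, all genes 23.1%) and 9 rose (20%, all genes 23%) with SAHA. Pargyline lowered 12 (26.7%, all genes 7.45%) and raised 2 (4.44%, all genes 8.48%). With both drugs 34 fell (75.6%, all genes 24%) and 8 rose (17.8%, all genes 24.3%). DTYMK, the kinase that turns dTMP into dTDP and so follows TYMS and TK1, fell by 1.73 ± 0.11, 0.69 ± 0.11 and 2.69 ± 0.11 with the 3 treatments in that order. DNA2, a flap nuclease, fell by 1.58 ± 0.19 with SAHA and 2.65 ± 0.19 with both. MCM9, a helicase relative that acts in repair, fell by 3.83 ± 0.11 with SAHA and 2.84 ± 0.11 with both. From SAHA to both drugs MCM9 thus rose, by 0.99 ± 0.11 (adjusted p = 0.00109). Of the 45 genes 23 fell in that step (51.1%, all genes 8.71%) and 2 rose (4.44%, all genes 7.88%). UNG, which removes uracil from DNA, fell by 1.22 ± 0.13 with SAHA and 1.68 ± 0.13 with both, and TIMELESS, a fork protection factor, by 0.70 ± 0.10 and 1.67 ± 0.10. TK2, the mitochondrial thymidine kinase, fell by 1.71 ± 0.24 with SAHA while TK1 rose, and rose by 0.97 ± 0.24 with pargyline (adjusted p = 0.0242).

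GINS4, the GINS subunit outside the member list, rose by 1.11 ± 0.20 with SAHA and by 0.63 ± 0.20 with both drugs, whereas GINS1, GINS2 and GINS3 fell. DBF4, the activator of CDC7, fell by 0.84 ± 0.12 with SAHA and 1.11 ± 0.12 with both. GMNN, geminin, the inhibitor of CDT1, gave -0.11 ± 0.08 with SAHA (adjusted p = 0.4) and fell by 0.68 ± 0.08 with both.

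Of 29 measured G1/S regulators 14 fell (48.3%, all genes 23.1%) and 5 rose (17.2%, all genes 23%) with SAHA. Pargyline lowered 6 (20.7%, all genes 7.45%) and raised 3 (10.3%, all genes 8.48%). With both drugs 14 fell (48.3%, all genes 24%) and 5 rose (17.2%, all genes 24.3%), so the shares that rose were near or below those of all genes. CDKN1A, the cyclin-dependent kinase inhibitor p21, rose by 3.82 ± 0.25 with SAHA, by 2.08 ± 0.25 with pargyline and by 4.90 ± 0.25 with both. CDKN1C, the inhibitor p57, rose by 2.89 ± 0.33 with SAHA. E2F1 passed in none of these comparisons (-0.41 ± 0.26 with SAHA, adjusted p = 0.261), E2F5 fell by 3.09 ± 0.38 and E2F8, a repressor, by 1.66 ± 0.14 with SAHA. SKP2, which marks p27 for degradation, fell by 1.91 ± 0.06 with SAHA, and CCNA2, cyclin A, by 1.05 ± 0.17. Of 33 mitotic genes measured, 28 fell with SAHA (84.8%, all genes 23.1%), 17 with pargyline (51.5%, all genes 7.45%) and 33 with both (100%, all genes 24%), with medians of -1.21, -0.58 and -2.03 beside -0.61, -0.28 and -1.11 for the replication members. PLK1, the mitotic kinase, fell by 4.26 ± 0.26 with SAHA, 1.27 ± 0.26 with pargyline and 5.20 ± 0.26 with both. Its means of 3.41 with SAHA and 2.47 with both drugs lie near the low end of the scale, which limits the size of these falls. UBE2C, KIF20A, HMMR, AURKB and NDC80 fell by 2.81 (NDC80) to 3.79 (HMMR) with both drugs.

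Of the 37 members 14 had more than 1 probe set, 56 probe sets in all. For members that passed with SAHA, 15 of 16 further probe sets had the direction of the brightest, and 12 of them passed too. The 15 include those of RFC1 and TYMS at the bottom of the scale (0.01 and -0.01), whose sign carries no weight. With both drugs it was 14 of 15, of which 13 passed, and the 14 include the same RFC1 probe set (0.01). RFC5 is not in the count with both drugs, because its brightest probe set did not pass, while another fell by 1.74. For pargyline the 1 further probe set had the same direction and passed. MCM4, with 3 further probe sets, fell by 0.78, 1.27 and 0.92 on them with SAHA, but its further fall from SAHA to both drugs passed on none of them (adjusted p 0.14 to 0.391).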

How the data were processed

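Gene expression was measured on 12 Affymetrix human expression arrays, 3 in each of 4 groups taken from the labels. RMA, run by the authors per the submitters' processing notes, gave the deposited log2 intensities; software version and whether all arrays were normalized together are not given in the sources used here, and the base of the log was inferred from the values. They were used as deposited. The table holds 22277 probe sets, of which 62 are controls, 19064 name 1 gene, 1043 several and 2108 none; only those with 1 gene were used. Symbols were brought up to date through Entrez identifiers (RefSeq, GRCh38.p14), and the brightest probe set stood for a gene.

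A model with a mean per group (limma 3.58.1 in R 4.3.3, lmFit and eBayes, 8 residual degrees of freedom) was fitted to 11963 genes, two-sided, with Benjamini-Hochberg adjustment over all of them, for 7 contrasts. The code was checked on simulated data. The members and all lists were chosen with earlier results of these data known, so no list was tested as a set. In full are given, per role, up to 4 called members with the largest change and every member that rose; of the other lists, up to 6 members with the largest called change among those whose highest group mean was above that of the median gene (7.06), and 7 set by name. Same-numbered replicates of different groups correlated in their deviations at 0.081 to 0.535, above 0 in all 18 pairs and over 0.1 in 13. Pairs with different numbers ran from -0.523 to 0.252. All 3 same-numbered pairs were over 0.1 for DMSO with pargyline and for SAHA with both drugs, but not for every pair of groups. That reading was made with the block's counts known. The labels do not say what a number shares, so the block stayed an alternative. The other alternatives were quantile normalization, centring on array medians, the mean of probe sets, dropping dim genes, array weights, a trended robust prior, fits of the compared groups alone, stricter thresholds and leaving out each array. The number of arrays limits the precision.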

Additional observations from a re-analysis of the deposited data

Results flagged for a closer look

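Members whose response to pargyline differed with and without SAHA by the interaction test were CDT1, at -1.11 (SE 0.18, adjusted p = 0.0125 in limma), and POLE, at 0.67 (SE 0.14, adjusted p = 0.0323). CDT1 was 3.64, 3.62 and 3.93 with both drugs against 5.20, 5.13 and 5.06 with SAHA. POLE was 7.87, 7.59 and 7.57 with both drugs against 7.79, 7.69 and 7.78 with SAHA.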

How the results depend on the processing

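Member counts within 1.5 times of those reported, under all settings but those named next, were found for SAHA, both drugs, both drugs against pargyline and SAHA against pargyline. A fall of at least 2-fold was left in 8 members with SAHA (8.75% of all genes), 0 with pargyline (0.351%) and 21 with both drugs (9.76%). It was left in 5 for both drugs against SAHA (0.819%) and 13 for both drugs against pargyline (9.18%). For the interaction 1 member was left, below additive (0.92%). None rose in these, where 0.276% to 10.7% of all genes rose. For SAHA against pargyline 4 were left: 2 fell (8.86% of all genes) and 2 rose (8.43%), so that count is no result about the members. An adjusted p under 0.01 in limma left 4 with pargyline (all genes 2.97%) and 12 for both drugs against SAHA (all genes 4.17%), all lower. It left 0 for the interaction (all genes 0.535% below additive and 0.234% above). The pargyline count of 7 became 27 with centring on array medians. Without dim genes it became 13 (12 fell and 1 rose, all genes 15% and 15.6%). In a fit of the compared groups alone it became 21 (20 fell and 1 rose, all genes 7.26% and 8.37%). With the replicate block it became 11, all of which fell (all genes 9.37%). Centring shifted the median gene by -0.15 with pargyline, -0.10 with SAHA and -0.17 with both drugs, and 51.6% of all genes then fell with pargyline. Both drugs against SAHA gave 8 in a fit of those groups alone (all genes 5.13%) and 24 with the block (all genes 10.4%), all lower. Array weights gave 5 for the interaction, 4 below additive and 1 above (all genes 5.29% and 3.73%). The block also brought past the threshold PCNA with SAHA (adjusted p = 0.0141), ORC1 and POLD1 for SAHA against pargyline (0.0121 and 0.0461) and the interaction of RPA3 (0.0358); beside these and the calls given above it changed no call of a member.

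Leaving out single arrays gave 24 to 28 members with SAHA, 4 to 8 with pargyline, 31 to 34 with both drugs, 18 to 26 for both drugs against SAHA, 31 to 33 for both drugs against pargyline, 19 to 21 for SAHA against pargyline and 1 to 4 for the interaction. In that order 21.2% to 22%, 4% to 7.18%, 22.1% to 23.3%, 5.28% to 8.94%, 21.8% to 23.2%, 21.1% to 21.8% and 1.34% to 3.51% of all genes fell. Those that rose were 21.2% to 22.4%, 6.13% to 7.74%, 22.7% to 23.6%, 5.07% to 7.74%, 22.1% to 23.7%, 21% to 23.4% and 0.652% to 1.97%. For members called against DMSO directions reversed in 3 cases: RFC5 with SAHA, at -0.27 for the mean of its probe sets and -1.36 on a further probe set, and TYMS with both drugs, at 0.00 on the probe set at the bottom of the scale. In the other comparisons that RFC5 probe set gave -1.34 for SAHA against pargyline, where the brightest gave 0.55. For both drugs against pargyline it gave -1.72, where the brightest gave 0.15 and did not pass. The RFC1 and TYMS probe sets at the bottom of the scale lay across 0 from the brightest in some, at 0.03 or less. Where the brightest did not pass, further probe sets of CDC6, FEN1, MCM4, RFC1 and RFC5 also lay across 0 in some comparisons. CDC6 with both drugs gave 0.06 there, against -0.31 on the brightest. Where no reason is given above, the cause was not tested. Low values with both drugs limit CDT1.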
